A study of Mus musculus with 6 samples.

Results

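The genes described are Creg2 and Map4k4 on mouse chromosome 1, Asph, Cfap418, Plekhf2, Tmem64 and Ggh on chromosome 4, and Sgcb, Fip1l1 and Tmem165 on chromosome 5. They were chosen by gene symbol from earlier results on the same samples, selected on a difference between genotypes and on lying close to other genes that differed, so the differences given for them below are descriptions and were not tested again. All 10 were listed among the 13254 genes of the deposited table, and all 10 were among the 11556 genes with at least 1 CPM (read counts scaled to a common library total) in at least 3 samples; each in fact reached 1 CPM in all 6 samples. The samples were bone marrow derived macrophages (BMDMs), macrophages grown in culture from marrow precursors. They lacked the miR-130b/301b microRNA cluster (KO, 3 samples) or were wild type (WT, 3 samples). The labels give no age, sex, strain, Cre driver or number of animals, and they name no treatment other than the genotype. Nor do they tie the samples of a genotype to separate animals, so the spread between them may be technical.

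MicroRNAs hold messenger RNAs back by pairing their seed, the bases near the 5′ end, with matching sites in the 3′ untranslated region (3′ UTR) of the target. Transcripts with such sites are the ones usually asked about when a microRNA is deleted. The genes described here share no pathway. They encode a secreted glycoprotein, a kinase, a hydroxylase, a folate hydrolase, a polyadenylation factor and membrane proteins of the endosome, endoplasmic reticulum, Golgi and cell surface, and they lie in several stretches of 3 chromosomes.

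The libraries were alike in the totals of the table, whose columns summed to between 989223 and 1018258 CPM. Depth in reads was unknown, because the low values were not whole multiples of one step, so no counting interval is given. KO and WT samples separated along the first principal component, which held 43.7% of the variance, and KO replicate 2 stood apart along the second, which held 18.7%. The transcript that hosts the deleted microRNAs, 2610318N02Rik, was listed at 0 CPM in the 3 KO samples, against 1.63, 2.43 and 2.07 CPM in the WT samples (exact two-sided permutation test, p = 0.1, the smallest that 3 samples against 3 allow). The 10 markers of macrophages were all present, with Lyz2 and Csf1r the most abundant, and 0 of them were called by limma (unadjusted p under 0.05 for 1 of the 10); they summed to between 20587 and 21321 CPM in KO and between 18957 and 19648 CPM in WT, with Lyz2 at 12163 ± 490 CPM in KO and 10513 ± 180 CPM in WT. Of the stromal markers, 2 of the 9 tested were called lower in KO (Col3a1 and Postn), and the 11 listed summed to between 40.4 and 121 CPM in KO and between 130 and 153 CPM in WT. Of the 6 osteoclast markers, 2 were called lower (Atp6v0d2 and Ctsk). They summed to between 441 and 457 CPM in KO and between 573 and 794 CPM in WT, of which Atp6v0d2 made up most. Of the neutrophil markers, 2 of the 9 tested were called lower (Mmp8 and Mpo), while the 10 listed summed to 184 to 232 CPM in KO and 208 to 229 CPM in WT. The 4 listed muscle markers summed to 1.20 to 6.89 CPM in KO and 6.68 to 9.43 CPM in WT, and the 3 listed lymphoid markers to 6.25 to 6.81 CPM in KO and 5.66 to 6.48 CPM in WT. In both lists 0 were called by limma, though the unadjusted p was under 0.05 for both tested muscle markers and for the 1 tested lymphoid marker. It was also under 0.05 for 8 of the 9 stromal, 4 of the 6 osteoclast and 3 of the 9 neutrophil markers tested. Among all 11556 tested genes, 1.27% were called and 1449 had an unadjusted p under 0.05. In such bulk samples, fewer cells of a type and less RNA per cell cannot be told apart.

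The sequence of one of the deleted microRNAs is shown first, since matches to its seed were the sites searched for. The RefSeq sequence (GRCm38.p6) of miR-130b-3p is given with its seed, bases 2 to 8, in capitals, beside miR-130a-3p and miR-301a-3p, which carry the same seed but lie on chromosomes 2 and 11, outside the deleted cluster on chromosome 16. miR-301b-3p is the other deleted microRNA and is named only.
miR-130b-3p: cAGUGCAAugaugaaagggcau
miR-130a-3p: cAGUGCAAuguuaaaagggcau
miR-301a-3p: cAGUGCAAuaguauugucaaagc

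Of the 10 genes, only Sgcb held a match to all 7 seed bases in its longest annotated 3′ UTR (GENCODE M21 transcripts), and it held 3. The motif searched was TTGCACT, on the transcript strand only, and the longer TTGCACTA contains it. Among all tested genes with a 3′ UTR (10691, median length 1206 bases), 11.9% held TTGCACT at least once and 0.253% held it 3 times or more. Among the 1590 whose 3′ UTR was 0.8 to 1.25 times as long as that of Sgcb, 18.9% held it at least once. The share with 3 or more was not taken at like length, and longer 3′ UTRs have more room for matches. The sites of Sgcb, a gene whose transcript was lower in KO, are shown with their flanks and with the match in capitals, at bases 195 to 201, 524 to 531 and 2450 to 2456 of a 3′ UTR of 2746 bases. Map4k4 held a single match to TGCACTA, another motif of 7 bases, which pairs with 6 seed bases. That motif was present, outside TTGCACTA, in 5.43% of the tested genes with a 3′ UTR. The match in Map4k4 lies at bases 1397 to 1403 of 1598.
Sgcb site at base 195: attttagtaagTTGCACTgatactcaaca
Sgcb site at base 524: tttccttagttTTGCACTAaagaaaatact
Sgcb site at base 2450: tggcaatcttcTTGCACTgtgacagaagc
Map4k4 site at base 1397: taagaatgcaaTGCACTAaaactgtttta

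None of the 3 genes that were higher in KO, Tmem64, Cfap418 and Fip1l1, held any of these motifs. Their 3′ UTRs run to 3403 bases in Tmem64, 1373 in Cfap418 and 2814 in Fip1l1, and among tested genes with 3′ UTRs of like length 22.2%, 11.8% and 19.0% held TTGCACT. Creg2, with the longest 3′ UTR of the group at 4690 bases, held none either, where 31.0% of genes of like length did. Which 3′ ends these macrophages use was not measured, and an absent motif says only that these letters are not in the annotated window.

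The values by sample showed 7 genes lower and 3 genes higher in KO, and in all 10 the KO and WT samples did not overlap, a property of 17.7% of all tested genes. All 10 were called by limma (Benjamini-Hochberg (BH) adjusted p under 0.05), as were 1.27% of the tested genes, 0.485% higher and 0.787% lower in KO; since that call chose the genes, nothing is read from it. The gene just inside the threshold was Sgcb, with an adjusted p of 0.0482, and the nearest gene outside it among their neighbours was Mrps9, with 0.0821. Differences are given as KO minus WT on the log2(CPM + 1) scale, with the standard error (SE) of the limma fit, and means as mean ± SD (n = 3 each). CPM is not scaled to gene length, so levels are not compared between genes.

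**Figure D1:**
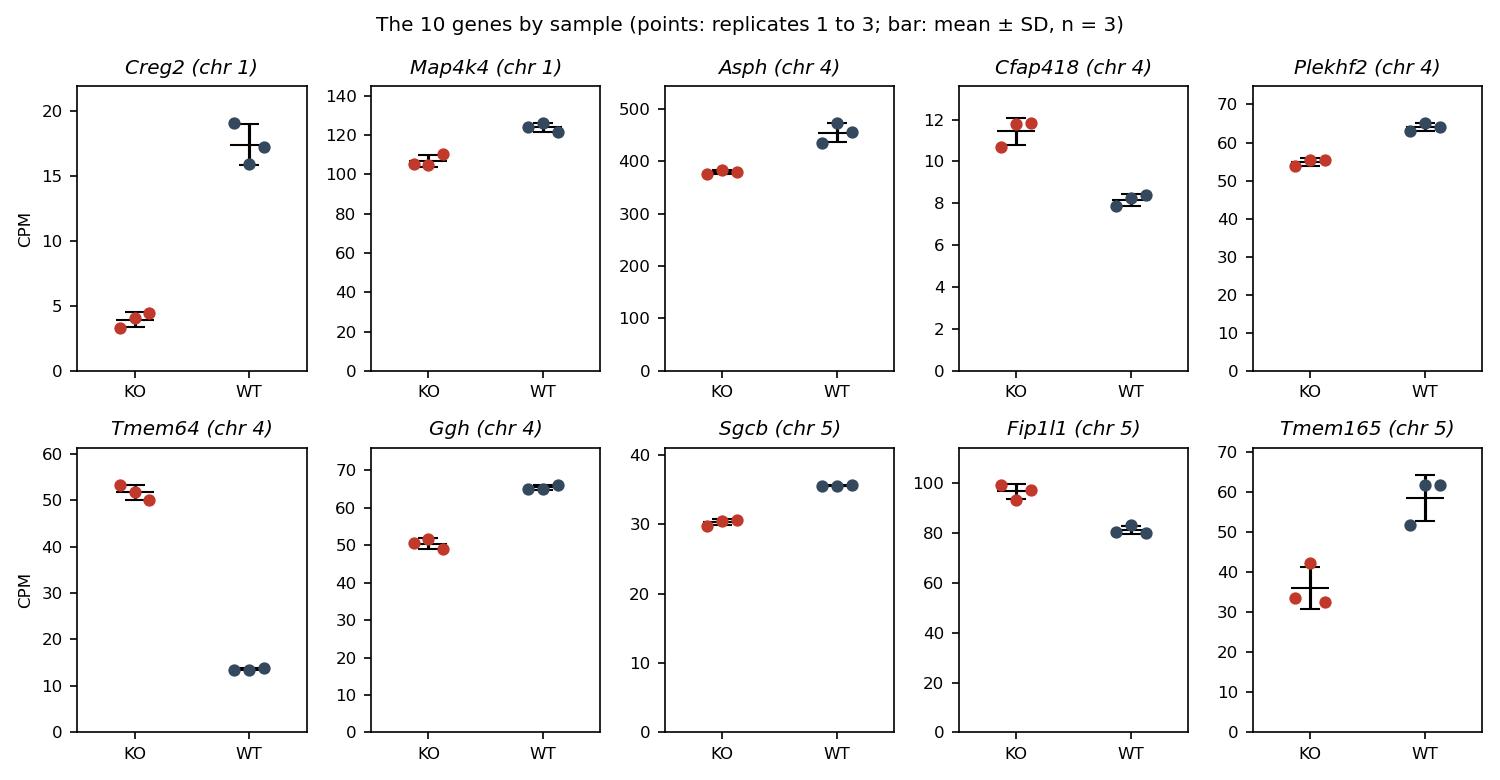
CPM of each of the 10 genes in the 3 KO samples (red) and the 3 WT samples (dark blue), with the mean ± SD; each panel has its own axis, which starts at 0. The widest separation relative to level is that of Creg2 (KO at 3.32 to 4.43, WT at 15.9 to 19.0 CPM) and of Tmem64 (KO at 50.0 to 53.3, WT at 13.4 to 13.9 CPM). In the other panels the points of KO and WT lie apart by less, relative to level.

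The pair on chromosome 1 are next to each other among the tested genes, 0.249 Mb apart on GRCm38 (GENCODE M21), a build other than the GRCm39 named in the submitters' processing notes. Creg2 encodes a secreted glycoprotein related to CREG1 and known mainly from brain. The gene is on the minus strand at chr1:39618406-39651474. Its values were 3.32, 4.10 and 4.43 CPM in KO replicates 1, 2 and 3, against 19.0, 15.9 and 17.2 CPM in WT replicates 1, 2 and 3. The highest KO sample lay 11.5 CPM below the lowest WT sample, and on the log2 scale no other gene of the 10 was as much lower. The means were 3.95 ± 0.571 CPM in KO and 17.4 ± 1.56 CPM in WT, a level 4.40 times as high in WT, with a log2 difference of -1.90 (SE 0.106). An antisense gene, D930019O06Rik, overlaps 1299 bases of Creg2 on the other strand; it was listed at 0.0320, 0.0695 and 0.0605 CPM in KO and at 0.498, 0.325 and 0.409 CPM in WT. It too was lower in every KO sample. Since no strand setting is given in the sources used here, reads of the 2 genes cannot be told apart within the 1299 bases they share.

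Map4k4 encodes a Ste20-type kinase that acts upstream of the JNK cascade and can phosphorylate the LATS kinases of the Hippo pathway. It lies on the plus strand at chr1:39900913-40026310. It stood at 106, 105 and 110.3 CPM in KO and at 124, 126 and 122 CPM in WT. The difference was small beside that of its neighbour, with a gap of 11.3 CPM between the highest KO and the lowest WT sample. The means were 107 ± 3.02 CPM in KO and 124 ± 2.24 CPM in WT, 13.8% lower in KO (log2 difference -0.21, SE 0.0361).

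Chromosome 4 holds 5 of the genes. Asph, Cfap418 and Plekhf2 lie nearest to each other, with 1.205 Mb between Asph and Cfap418. Plekhf2 and Tmem64 have 15 tested genes and 4.26 Mb between them, and Tmem64 and Ggh have 9 tested genes and 4.755 Mb. Tmem64 encodes a membrane protein of the endoplasmic reticulum that, in mice, binds the calcium pump SERCA2 and takes part in osteoclast formation. It lies on the plus strand at chr4:15265831-15286753. Its values were 53.3, 51.6 and 50.0 CPM in KO, against 13.4, 13.5 and 13.9 CPM in WT. The samples of each genotype lay close together, far apart from those of the other, and on the log2 scale no other gene of the 10 was as much higher in KO. The means were 51.6 ± 1.67 CPM in KO and 13.6 ± 0.253 CPM in WT, 3.80 times as high in KO (log2 difference 1.85, SE 0.0491). Of the 6 osteoclast markers, 2 were called lower in KO, Atp6v0d2 (log2 difference -0.75) and Ctsk (-0.67). The others did not pass the test, with Acp5 at -0.64, Itgb3 at -0.31, Dcstamp at -0.14 and Ocstamp at 0.18. The part of osteoclast RNA in the level of Tmem64 was not tested.

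Ggh encodes gamma-glutamyl hydrolase, a lysosomal enzyme that removes the glutamate chain by which cells retain folate. Its position is chr4:20042052-20066750 on the plus strand, with 9 tested genes between it and Tmem64. It stood at 50.5, 51.8 and 49.0 CPM in KO and at 65.1, 65.1 and 66.2 CPM in WT. The WT samples differed by only 1.08 CPM among themselves and the KO samples by 2.87 CPM, both well under the gap of 13.3 CPM between the groups. The means were 50.4 ± 1.43 CPM in KO and 65.5 ± 0.621 CPM in WT, 23.0% lower in KO (log2 difference -0.37, SE 0.0392).

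Asph encodes a hydroxylase that uses 2-oxoglutarate to modify aspartate and asparagine in EGF-like domains, and shorter products of the same gene, junctin and junctate, bind calcium in the endoplasmic reticulum. Its position is chr4:9448069-9669344 on the minus strand. It stood at 375, 383 and 378 CPM in KO and at 435, 472 and 455 CPM in WT. The KO samples lay within 7.53 CPM of each other, whereas the WT samples spread over 37.3 CPM. The means were 379 ± 3.78 CPM in KO and 454 ± 18.7 CPM in WT, 16.6% lower in KO (log2 difference -0.26, SE 0.0367). The table does not separate the enzyme from the shorter products. In the same KO samples the stromal markers summed to 69.0, 40.4 and 121 CPM; the part of stromal RNA in the level of Asph was not tested. Clvs1, which overlaps 3623 bases of Asph on the other strand, stood under 1 CPM in all 6 samples.

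Cfap418 and Plekhf2 lie next to each other among the tested genes and went in opposite directions. Cfap418, known in GENCODE M21 as 2610301B20Rik and matched by its identifier, lies on the plus strand at chr4:10874498-10899425; its human counterpart is mutated in retinal dystrophies and in a form of Bardet-Biedl syndrome. It stood at 10.7, 11.8 and 11.8 CPM in KO and at 7.86, 8.27 and 8.38 CPM in WT, with means of 11.4 ± 0.646 CPM in KO and 8.17 ± 0.274 CPM in WT. This was 40.0% higher in KO (log2 difference 0.44, SE 0.0716), with a gap of 2.31 CPM between the groups. Plekhf2, 0.089 Mb away on the minus strand at chr4:10988662-11007927, encodes a protein of early endosomes that binds phosphatidylinositol 3-phosphate (PI3P) through a FYVE domain. It stood at 53.8, 55.5 and 55.4 CPM in KO and at 63.0, 65.1 and 64.0 CPM in WT, with means of 54.9 ± 0.966 CPM in KO and 64.0 ± 1.06 CPM in WT. This was 14.3% lower in KO (log2 difference -0.22, SE 0.0377), a small shift between 2 tight groups.

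On chromosome 5, Sgcb, Fip1l1 and Tmem165 lie within a stretch with 2 tested genes between the first pair and 4 between the second. Tmem165 encodes a Golgi membrane protein that carries manganese and calcium and is needed for normal glycosylation; its human counterpart is mutated in a congenital disorder of glycosylation. It lies on the plus strand at chr5:76183880-76209245. It stood at 33.5, 42.2 and 32.6 CPM in KO and at 51.8, 61.9 and 61.9 CPM in WT. Unlike most of the others, it varied within each genotype: KO replicate 2 was the highest KO sample and WT replicate 1 the lowest WT sample, and 9.61 CPM separated them. The means were 36.1 ± 5.31 CPM in KO and 58.5 ± 5.81 CPM in WT, 38.3% lower in KO (log2 difference -0.69, SE 0.105). Without KO replicate 2 the difference was -0.80.

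Sgcb encodes beta-sarcoglycan, a subunit of the sarcoglycan complex that is joined to dystroglycan and dystrophin at the muscle membrane and is mutated in a limb-girdle muscular dystrophy. Its position is chr5:73632749-73647790 on the minus strand. It stood at 29.8, 30.5 and 30.6 CPM in KO and at 35.5, 35.6 and 35.7 CPM in WT. The WT samples were nearly equal, with a range of 0.231 CPM, and the gap to the KO samples was 4.88 CPM. The means were 30.3 ± 0.460 CPM in KO and 35.6 ± 0.116 CPM in WT, 14.9% lower in KO (log2 difference -0.23, SE 0.0425). The call of Sgcb was lost whichever sample was left out (limma, BH-adjusted p between 0.0696 and 0.201). Sgcb carries the 3 seed matches shown above, and any part of them in its level was not tested.

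Fip1l1 encodes a subunit of the cleavage and polyadenylation specificity factor that binds uridine-rich RNA near the poly(A) signal and contacts poly(A) polymerase. It lies on the plus strand at chr5:74535449-74598800, where 6354 bases overlap Lnx1 on the other strand, a gene not analysed here. It stood at 99.3, 93.1 and 97.3 CPM in KO and at 80.3, 83.0 and 80.1 CPM in WT. All KO samples lay above all WT samples, by 10.1 CPM at the nearest. The means were 96.6 ± 3.19 CPM in KO and 81.1 ± 1.61 CPM in WT, 19.0% higher in KO (log2 difference 0.25, SE 0.0389).

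The 10 genes thus fell into 2 with differences beyond 1 on the log2 scale, Tmem64 and Creg2, and 8 with smaller ones. By size of log2 difference Creg2 ranked 16 and Tmem64 17 among the 11556 tested genes, and the others between 110 (Tmem165) and 1134 (Map4k4). The differences of Map4k4, Plekhf2 and Sgcb lay between the 5th and 95th percentiles of all tested genes (-0.23 and 0.20). For these 3 genes the SD of the log2 values was below the median of tested genes in both genotypes. Over the whole group it was below that median for 7 of the 10 genes in KO and for 8 in WT; Creg2 and Tmem165 were above it in both genotypes.

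As KO and WT samples did not overlap in any of the 10 genes, leaving out a single sample could not change the direction of a difference. The log2 difference moved least for Tmem64 relative to its size (1.83 to 1.87) and most for Tmem165 (-0.80 to -0.62). Which genes remained past the threshold depended on the sample left out. Creg2, Ggh and Tmem64 were called with any sample left out, and they alone of the 10 were called when KO replicate 1, WT replicate 2 or WT replicate 3 was missing. Of the 10, 6 were called with KO replicate 2 missing, 5 with KO replicate 3 missing and 7 with WT replicate 1 missing. The calls of Sgcb and Cfap418 were lost whichever sample was left out. With a sample missing, Map4k4 was called only without KO replicate 3, and Plekhf2 only without WT replicate 1.

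**Figure D2:**
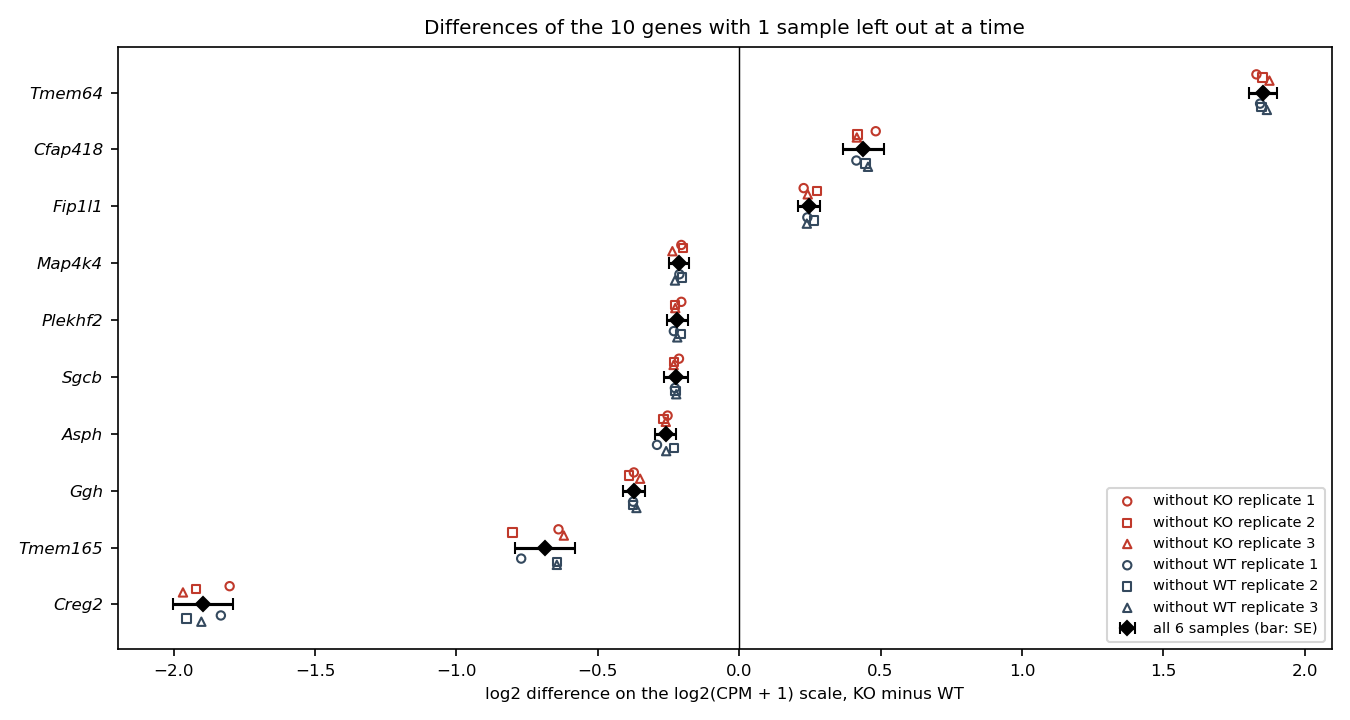
Difference between KO and WT for each of the 10 genes on the log2(CPM + 1) scale with all 6 samples (black, bar: SE) and with each sample left out (open symbols, KO red, WT dark blue). No symbol crosses 0, which was fixed in advance because KO and WT samples did not overlap. The widest scatter is that of Tmem165, from -0.80 without KO replicate 2 to -0.62 without KO replicate 3.

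The tested genes around the 10 were mostly unlike them. Among the 10 tested genes on either side of each, 91 different genes in all with the 10 themselves left out, 3 were called higher and 3 lower in KO, 6.59% against 1.27% of all tested genes; nearness to changed genes chose the 10, so this share is given as a description. Groups did not overlap for 27.5% of the 91. Their median log2 difference was -0.03, against 0.00 over all tested genes, with 35 positive and 56 negative.

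On chromosome 1, 3 of 20 neighbours were called. Il1r1, which encodes the signalling receptor of interleukin-1, is the next tested gene beyond Map4k4, 0.199 Mb away. It was listed at 6.62, 6.45 and 6.75 CPM in KO and at 0.667, 0.713 and 0.451 CPM in WT (log2 difference 2.24, SE 0.106). After it comes Il1rl2, the receptor of interleukin-36, at 4.91, 5.45 and 4.56 CPM in KO and at 1.43, 1.51 and 1.32 CPM in WT (1.30, SE 0.101). The next gene, Il1rl1, did not pass the test (-0.05). Nck2, an SH2 and SH3 adaptor 9 tested genes from Map4k4, stood at 15.1, 14.8 and 15.4 CPM in KO and at 25.5, 27.4 and 25.3 CPM in WT (-0.75, SE 0.0558). Along this stretch the order is thus Creg2 and Map4k4 lower, Il1r1 and Il1rl2 higher, then Nck2 lower, with uncalled genes between the last 2.

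On chromosome 4, 2 of 45 neighbours were called, both lower in KO and both between Tmem64 and Ggh. Decr1, a reductase of mitochondrial fatty acid oxidation, follows Tmem64 directly and stood at 19.6, 19.1 and 19.2 CPM in KO and at 26.7, 29.0 and 29.6 CPM in WT (log2 difference -0.54, SE 0.0560). Atp6v0d2, a V-ATPase subunit abundant in osteoclasts, precedes Ggh directly and stood at 341, 331 and 346 CPM in KO and at 462, 618 and 654 CPM in WT (-0.75, SE 0.111). It is one of the osteoclast markers. The 7 tested genes between Decr1 and Atp6v0d2 had log2 differences between -0.06 and 0.15 and were not called. The call of Atp6v0d2 was lost without KO replicate 1 (limma, BH-adjusted p = 0.0879), KO replicate 3 (0.0537), WT replicate 2 (0.0879) and WT replicate 3 (0.0623). The single tested gene between Asph and Cfap418, Gm12918, did not pass the test (-0.13).

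On chromosome 5, 1 of 26 neighbours was called. This was Atp10d, a phospholipid flippase gene, at 28.2, 18.4 and 27.9 CPM in KO and at 4.55, 4.28 and 3.28 CPM in WT (log2 difference 2.34, SE 0.167). KO replicate 2 was the lowest KO sample but still above every WT sample. The genes between Sgcb and Fip1l1, Usp46 and Scfd2, were not called (0.13 and 0.10). Between Fip1l1 and Tmem165 lie Chic2, Kit, Kdr and Srd5a3, also uncalled. Kit, the stem cell factor receptor, had the largest log2 difference among the neighbours that did not pass the test, -0.82, at 0.438, 0.978 and 0.356 CPM in KO and 1.67, 2.59 and 1.23 CPM in WT.

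**Figure D3:**
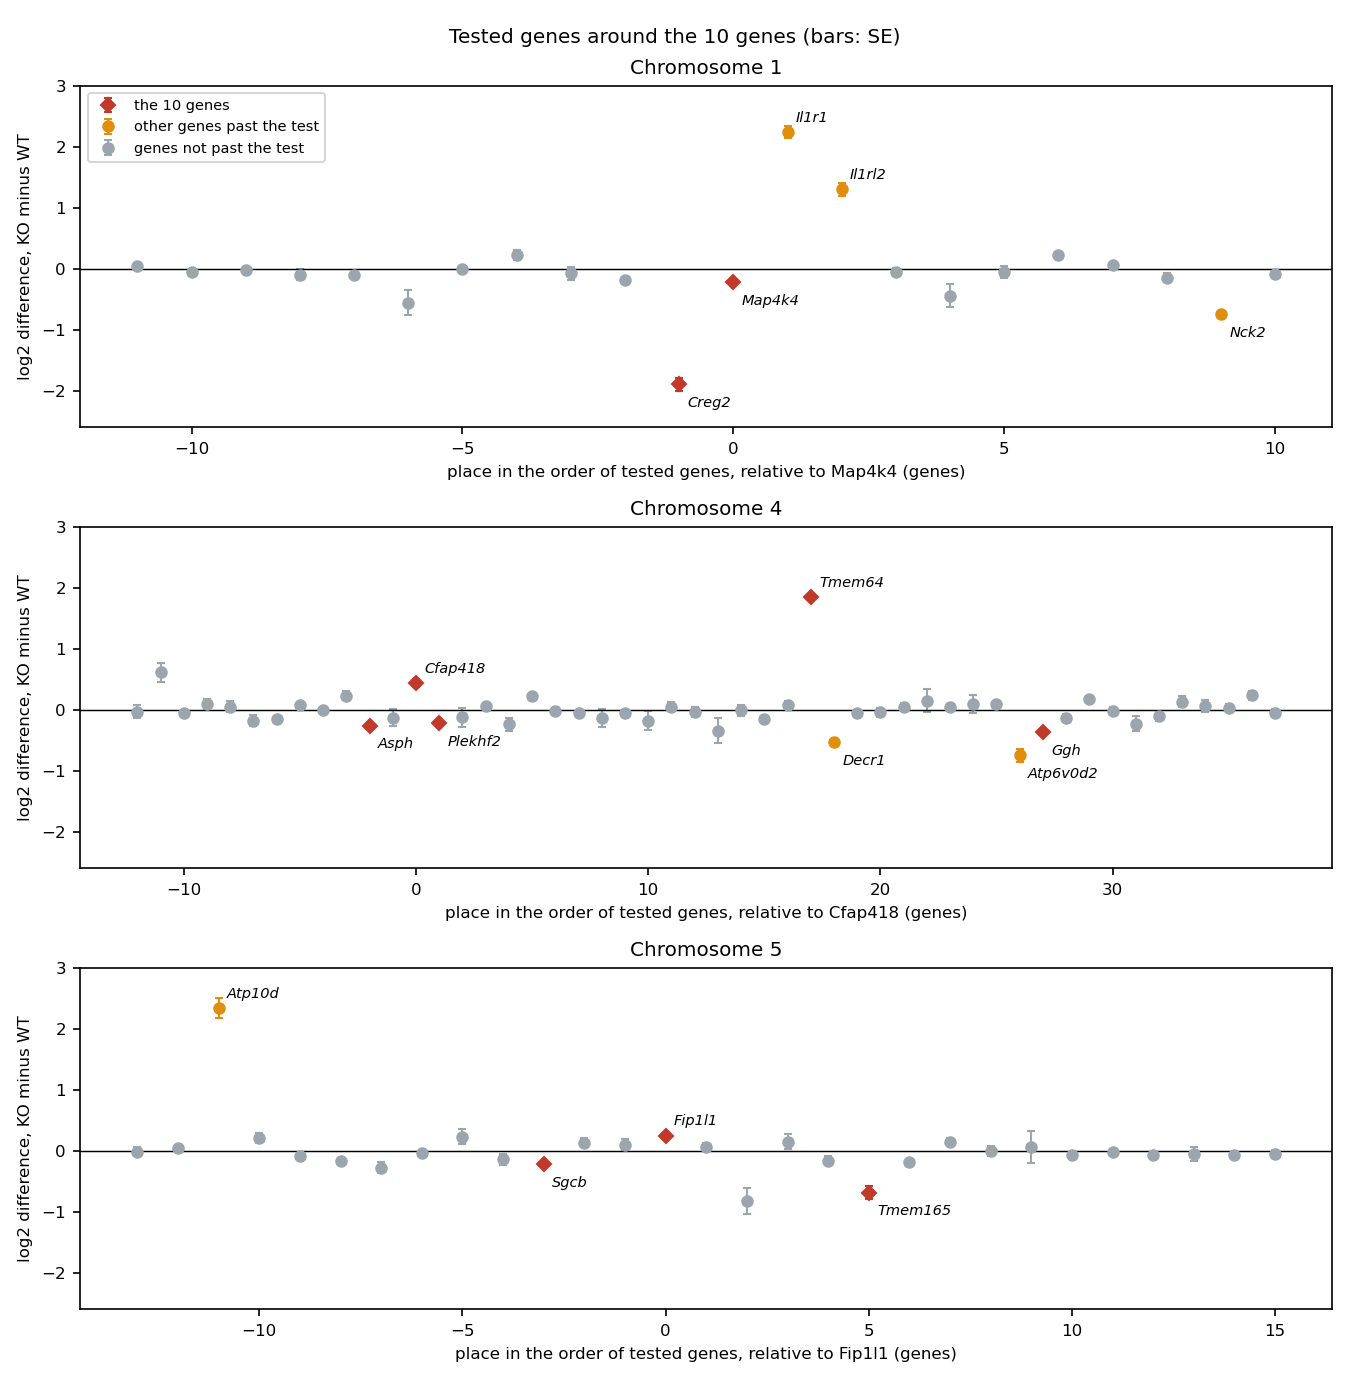
Difference between KO and WT on the log2(CPM + 1) scale (bars: SE) for the 10 genes (red diamonds) and the tested genes within 10 places of each, by place in the order of tested genes on each chromosome; orange points passed the test and grey points did not. Each stretch holds genes higher and genes lower in KO, such as Il1r1 at 2.24 and Creg2 at -1.90 on chromosome 1, and most grey points lie near 0.

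Partners of the 10 genes were next examined in 10 lists of their families, complexes and pathways. Of 184 tested partner genes, 2 were called higher and 2 lower in KO by limma after BH adjustment over all tested genes, or 2.17% against 1.27% of all tested genes. Their median log2 difference was 0.00. The unadjusted p was under 0.05 for 20 of them, as for 1449 of the 11556 tested genes. The called genes came from the lists around Map4k4 and Sgcb.

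Around Map4k4, Map3k7 was higher and Jun lower among 23 tested kinases, Hippo genes and JNK cascade genes. Map3k7, the kinase TAK1 upstream of JNK and NF-kappaB, stood at 77.5, 78.3 and 77.1 CPM in KO and at 63.9, 64.3 and 60.8 CPM in WT (log2 difference 0.30, SE 0.0383, limma, BH-adjusted p = 0.00905). Jun, the transcription factor that JNK phosphorylates, stood at 103.7, 103.6 and 104 CPM in KO and at 131, 129 and 131 CPM in WT (-0.33, SE 0.0311, adjusted p = 0.00136). Without WT replicate 3 the limma, BH-adjusted p of Map3k7 was 0.0522. The closest relative of Map4k4 that was tested, Mink1, stood at 92.1, 96.9 and 96.0 CPM in KO and at 99.7, 97.8 and 99.8 CPM in WT (-0.06, adjusted p = 0.537 by limma). Map4k1, Map4k2, Map4k3 and Map4k5 were not called either, and Tnik lay under the filter on low values.

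Around Sgcb, 16 genes of the dystroglycan complex and its glycosylation were tested. Pomk, a kinase that phosphorylates the sugar chain of dystroglycan, was called higher in KO and stood at 36.7, 36.6 and 37.0 CPM in KO and at 20.4, 27.2 and 27.4 CPM in WT (log2 difference 0.55, SE 0.102, limma, BH-adjusted p = 0.0456). With a sample left out, the limma call of Pomk held only for WT replicate 1; for the other 5 samples its adjusted p lay between 0.0756 and 0.161. Dag1, which encodes dystroglycan, stood at 188 ± 11.2 CPM in KO and 202 ± 5.76 CPM in WT (-0.11, adjusted p = 0.405 by limma). The other sarcoglycan genes were not analysed here.

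In the other 8 lists 0 genes were called by limma, and the numbers with an unadjusted p under 0.05 were 5 of 22 folate genes around Ggh, 4 of 14 hydroxylases around Asph, 3 of 29 endosomal genes around Plekhf2, 3 of 15 calcium genes around Tmem64, and 0 in the lists around Creg2, Cfap418, Fip1l1 and Tmem165. Among folate genes, the folate receptor Folr2 stood at 149 ± 16.3 CPM in KO and 195 ± 18.5 CPM in WT (log2 difference -0.38, limma, BH-adjusted p = 0.106), and the one-carbon enzyme Mthfd2 at 93.3 ± 2.59 CPM in KO and 91.8 ± 3.55 CPM in WT (0.02, adjusted p = 0.880). Fpgs, which adds the glutamates that the product of Ggh removes, stood at 4.37 ± 0.201 CPM in KO and 4.40 ± 0.134 CPM in WT; this gene was picked once its values had been seen. Creg1, the sole relative of Creg2, stood at 599.8 ± 5.99 CPM in KO and 631 ± 19.7 CPM in WT (-0.07, limma, BH-adjusted p = 0.417).

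Among hydroxylases, Plod1 had a log2 difference of 0.09 and P4ha1 of -0.06 (limma, BH-adjusted p = 0.293 and 0.676). Less abundant members had larger differences without passing the test, with P4ha2 at -0.71, Plod2 at -0.34 and Egln3 at -0.30 (limma, BH-adjusted p = 0.0857, 0.268 and 0.177). These 3 were picked once their values had been seen. Groups did not overlap in these 3 and in Plod1, which was higher in KO. That made 4 of the 14 hydroxylases tested (28.6%), against 17.7% of all tested genes. The calcium pump gene Atp2a2, which encodes SERCA2, stood at 284 ± 11.4 CPM in KO and 292 ± 13.7 CPM in WT (-0.04, limma, BH-adjusted p = 0.759), and the chaperone gene Calr at 1223 ± 33.2 CPM in KO and 1313 ± 28.9 CPM in WT (-0.10, adjusted p = 0.279). Plekhf1, the paralog of Plekhf2, stood at 1.37 ± 0.299 CPM in KO and 1.05 ± 0.240 CPM in WT (0.21, limma, BH-adjusted p = 0.610), while Vps35 and Rab5c, the most abundant endosomal genes, differed by -0.02 and 0.03.

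None of the tested genes listed with Fip1l1, Tmem165 and Cfap418 passed the test. The 23 other cleavage and polyadenylation genes had log2 differences between -0.10 and 0.09, with Ppp1cc at -0.05 and Papola, a poly(A) polymerase, at -0.07 (limma, BH-adjusted p = 0.520 and 0.513). The 24 Golgi ion transport and glycosylation genes had differences between -0.08 and 0.09, with Man2a1 at -0.07 and B4galt1 at 0.04 (limma, BH-adjusted p = 0.493 and 0.706). The 17 BBSome and cilium genes around Cfap418 ran between -0.14 and 0.24, with Bbip1 at -0.03 and Lztfl1 at -0.01 (limma, BH-adjusted p = 0.886 and 0.971).

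**Figure D4:**
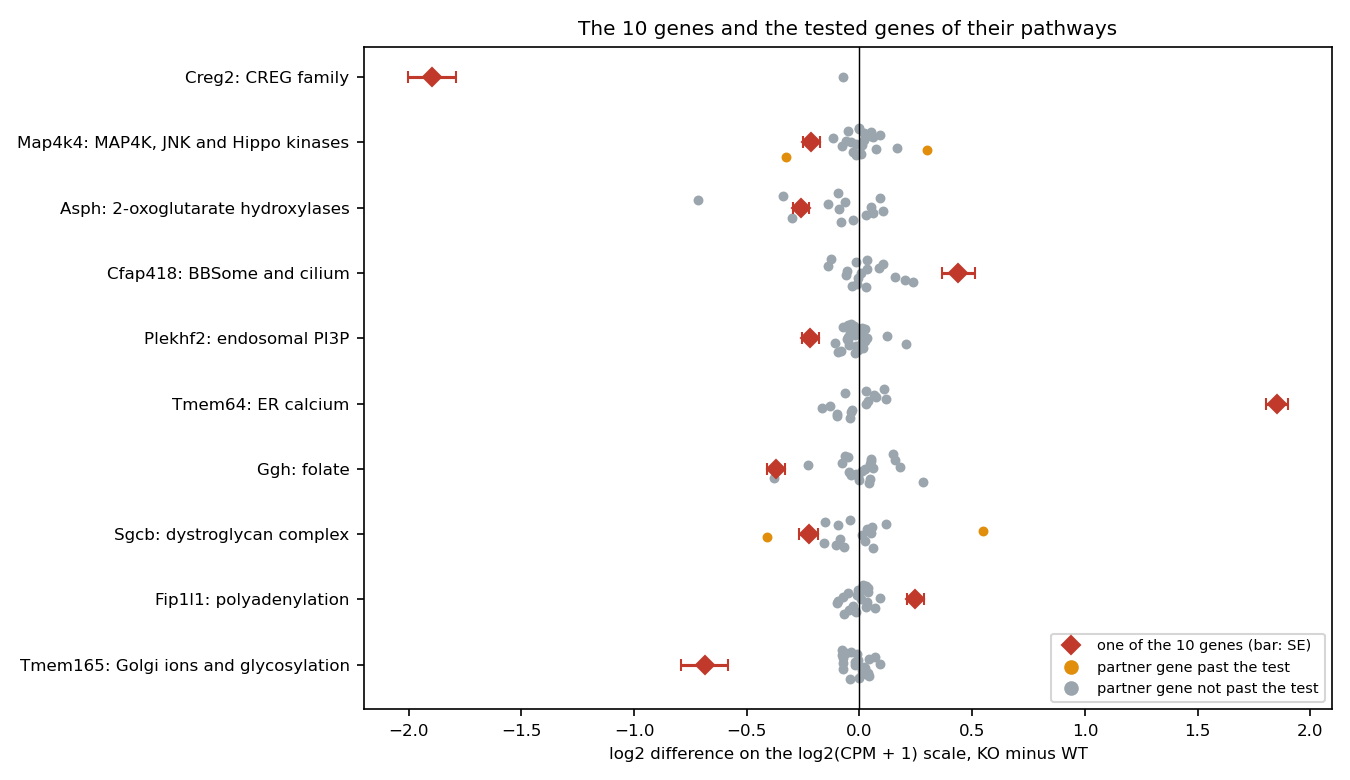
Difference between KO and WT on the log2(CPM + 1) scale for the 10 genes (red diamonds, bar: SE) and for the tested genes of the list around each; orange points passed the test and grey points did not. In the rows of Fip1l1 and Tmem165 the partner genes lie between -0.10 and 0.09 while the diamonds lie at 0.25 and -0.69.

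The genes whose 6 values most resembled those of Tmem64 and Creg2 lay on other chromosomes, on chromosome 1 outside the neighbours described above, or had no position. Likeness was the root mean square distance between log2(CPM + 1) values centred on each gene's mean over the 6 samples, a measure that mostly ranks genes by their difference between genotypes. For Tmem64 the nearest were the pseudogene Eif3s6-ps2 on chromosome 18 (0.131), whose reads may be shared with its parent gene, Rims2 on chromosome 15 (0.164), which encodes a presynaptic scaffold, and an unnamed gene (0.173). Rims2 stood at 12.4, 12.0 and 11.9 CPM in KO and at 1.91, 1.73 and 2.16 CPM in WT. For Creg2 they were the microRNA host transcript 2610318N02Rik on chromosome 16 (0.255), the collagen gene Col3a1, further away on chromosome 1 (0.323), and Ctnnd2, which encodes delta-catenin, on chromosome 15 (0.332). Col3a1 stood at 0.816, 0.337 and 1.49 CPM in KO and at 8.62, 5.30 and 4.36 CPM in WT and is one of the stromal markers; the part of stromal RNA in the level of Creg2 was not tested.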

How the data were processed

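RNA sequencing of total RNA, paired-end per the labels, covered 6 BMDM samples. The authors deposited values in CPM per gene; the columns sum to different totals, so a scaling between libraries is included. The submitters' processing notes name the build GRCm39; aligner, counter, annotation and strand are not given in the sources used here. Beside them the deposited file holds 1 p-value without a column name, used in no test; 0 sample columns were unused.

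Members and lists were chosen with earlier results of these data known. The 11556 genes that reached 1 CPM in 3 or more samples were compared by limma 3.58.1 in R 4.3.3 on log2(CPM + 1), with a mean-variance trend, two-sided, with BH adjustment over all of them and a threshold of 0.05. The fit was tested on simulated data. For low genes this scale understates fold changes. No replicate term was used: same-numbered samples' deviations correlated at 0.000154, 0.0834 and 0.0646. Positions (11279 tested genes) and 3′ UTRs came from GENCODE M21 on GRCm38, used for order and transcripts. Text handling used Python 3.11.15.

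The text names all 10 genes, called neighbours, called partners or the 2 most abundant of a list, close paralogs and the 3 genes nearest in pattern to Tmem64 and Creg2. Other neighbours named were chosen after their values were seen. Of the called partners, 1 is counted but not reported here. Alternatives were pseudocounts of 0.1 and 5, other filters and scalings, no trend, a replicate block and leaving out each sample.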

Additional observations from a re-analysis of the deposited data

How the results depend on the processing

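The log2 differences of the 10 genes kept their direction under all alternatives run. As KO and WT samples did not overlap in these genes, only the other scalings could have changed it. The differences moved by more than the spread between replicates only with pseudocounts of 0.1 (Creg2 and Tmem64) and 5 (Creg2, Tmem64, Cfap418 and Sgcb). Over all alternatives that of Creg2 ran from -2.12 to -1.32 and that of Tmem64 from 1.61 to 1.92. The number of the 10 past the test was 4 without the mean-variance trend and 5 with the replicate block, where same-numbered samples are not known to be paired; it was 9 or 10 with other pseudocounts, filters and scalings.

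Over all tested genes 147 were called with all samples, 74 without the trend, 142 with the replicate block and between 55 (without WT replicate 3) and 243 (without WT replicate 1) with a sample left out. Without the trend 51.4% of calls were higher in KO, against 38.1% with it. Called neighbours on chromosome 1 numbered 3, but 1 with a mean of at least 5 CPM required, a filter that removes Il1r1 and Il1rl2, and between 3 and 5 with a sample left out. On chromosome 4 they numbered 2, but 1 without the trend and between 1 and 2 with a sample left out; on chromosome 5 they numbered 1, but 2 with the replicate block and between 1 and 2 with a sample left out. Called partner genes numbered 4, but 2 without the trend and between 1 and 3 with a sample left out. The calls of Pomk (limma, BH-adjusted p = 0.136) and Atp6v0d2 (0.0883) were lost without the trend. The cause of the other changes was not tested. Depth in reads was unknown, so how far it limits low genes such as Creg2 in KO cannot be given.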
